A study of Danio rerio with 6 samples.

Results

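Collagens, laminins, nidogens and fibronectins, the large structural proteins of the extracellular matrix, were measured by RNA sequencing in zebrafish (Danio rerio) livers with an inducible human ATG5 transgene and in wild-type livers. The rows studied were those whose symbol names a collagen chain, a laminin chain, a nidogen or fibronectin 1 and whose count reached 10 in at least 3 of the 6 libraries. Of 30628 rows in the count table, 77 carried such a symbol and 52 met the count rule: 2 fibronectins, 12 fibrillar collagens, 19 basement membrane genes (9 laminin chains, 5 type IV collagens, 4 nidogens and 1 multiplexin) and 19 other collagens. Some symbols are written in capitals and cover more than 1 row, because the annotation does not separate zebrafish paralogues there. Such rows are given with their Ensembl identifiers.

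The ATG5 group held 3 liver libraries from fish with the transgene Tg(fabp10a:mCherry-T2A-LexPR;LexOP:ATG5WT). In these fish the hepatocyte promoter fabp10a drives a red reporter and an activator, and the activator turns on human ATG5, an autophagy gene, in the presence of the steroid mifepristone. The WT group held 3 liver libraries from wild-type fish that received mifepristone too. All 6 samples carry the label 2 wpi, and the series text calls ATG5 livers HCC (hepatocellular carcinoma) and WT livers normal. No group had the transgene without the drug, so ATG5 and other differences between the lines cannot be told apart. The labels do not say whether a replicate is 1 fish or a pool, and p-values therefore rest on a spread among these samples that may be technical. The labels used here give no age. The kit was a stranded total RNA kit, and whether counting used the strand is not stated, so reads of overlapping antisense genes may be mixed in.

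Fibrillar collagens assemble into the fibres of interstitial connective tissue, and in a scarred liver they come mainly from activated stellate cells and fibroblasts. Basement membranes are thin sheets under epithelium and around vessels, built from a type IV collagen network and a laminin network that nidogens join. Hepatocytes secrete soluble fibronectin into plasma, and many other cells lay down an insoluble form in the matrix. Healthy liver sinusoids are known for having little organised basement membrane.

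Total estimated counts were 33668921 to 44763213 in ATG5 libraries and 35151084 to 43864078 in WT libraries. Levels are CPM, counts scaled to a common library size, after TMM scaling, which aligns the bulk of genes between libraries, and 3 counts equalled 0.0503 to 0.0607 CPM in ATG5 and 0.0897 to 0.12 CPM in WT livers. CPM values are not corrected for transcript length, so levels are compared between groups and not between genes. The zebrafish atg5 row, which cannot stand for the human transgene, had 14.9, 19.3 and 14.8 CPM in ATG5 livers and 12.5, 11.4 and 19.8 CPM in WT livers, and these values overlapped. Over all 20366 genes tested, 30.6% were called at an edgeR adjusted p under 0.05, 17.3% higher and 13.2% lower in ATG5. The share of counts held by the top 10 genes was 16.45% to 17.71% in ATG5 livers and 25.22% to 27.69% in WT livers.

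Of the 52 matrix genes, 6 rose and 6 fell in ATG5 livers, so that 23.1% were called, below the 30.6% of all tested genes. COL11A1, COL5A2, col27a1b, LAMB1 (ENSDARG00000045524), col18a1a and COL12A1 (ENSDARG00000078322) rose. Of these, COL11A1 met the count rule through the ATG5 libraries alone. FN1 (ENSDARG00000006526), NID1 (ENSDARG00000068710), col24a1, col4a6, COL5A1 and col23a1b fell. The median log2 fold change of the 52 genes was 0.34, against 0.03 over all tested genes. The 52 include COL11A1, col5a3a, COL8A2 and COL2A1 (ENSDARG00000069093), which met the count rule only through ATG5 libraries. Their log2 fold changes were 6.25, 1.64, 0.68 and 0.63, all above that median, so the count rule itself favoured a higher median. In 24 of the 52 genes the ATG5 and WT values were separate, 13 above and 11 below WT, while 49.3% of all tested genes showed no overlap. The 13 above include COL11A1 and col5a3a.

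**Figure D1:**
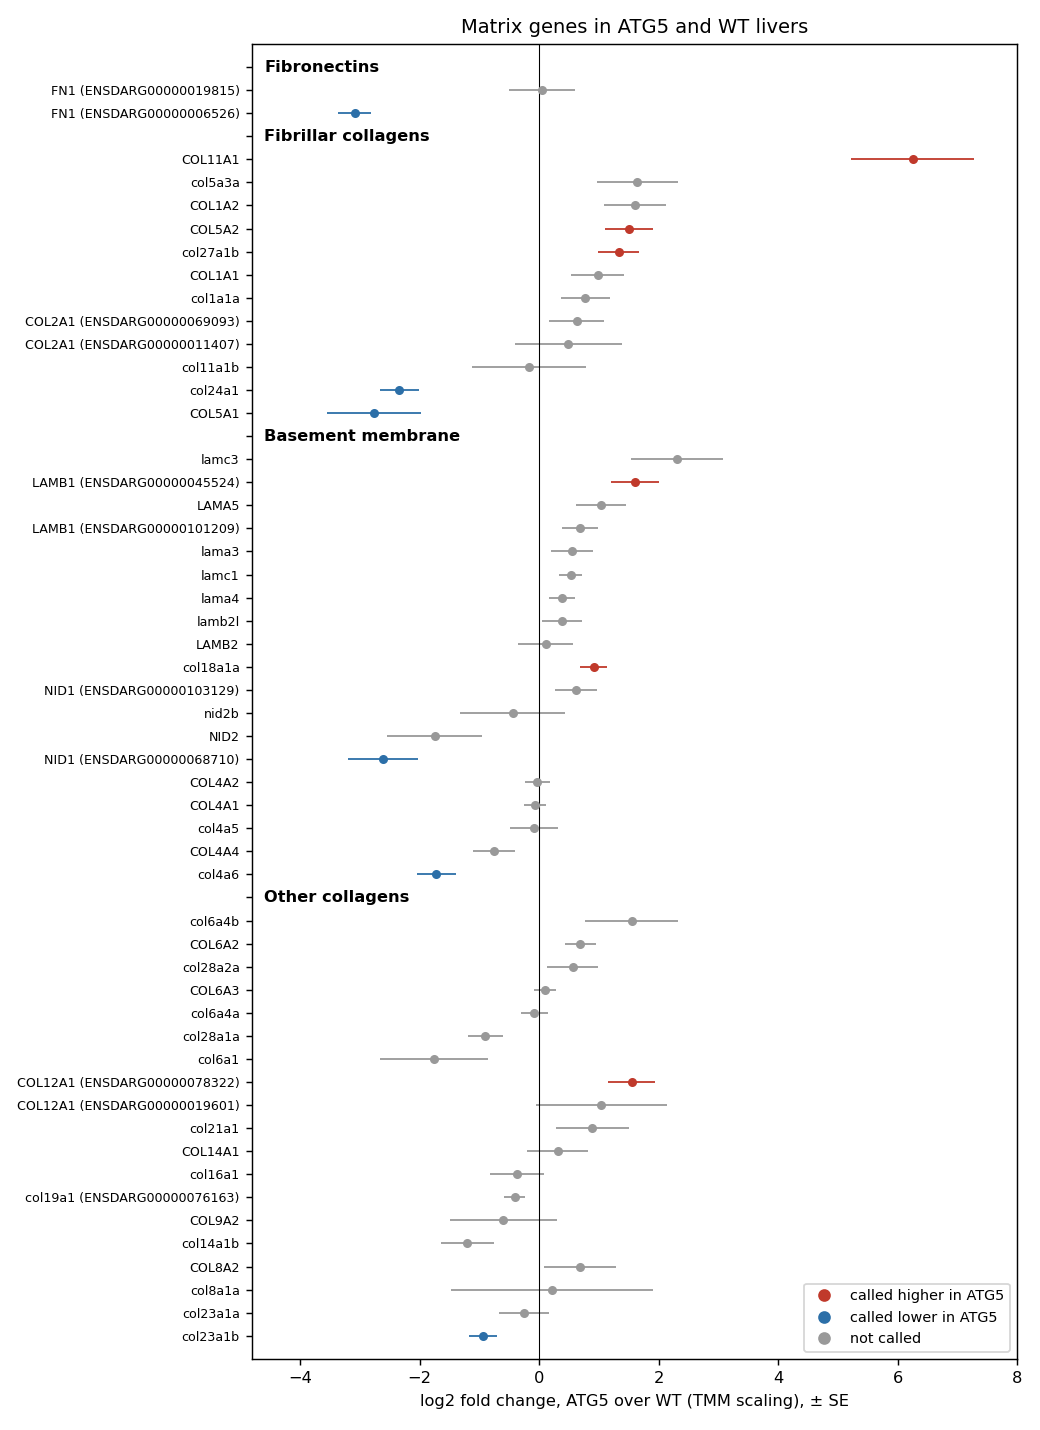
Log2 fold change of ATG5 over WT livers for the 52 matrix genes, with bars of 1 SE from the edgeR fit, grouped as fibronectins, fibrillar collagens, basement membrane genes and other collagens. Red marks the 6 genes called higher and blue the 6 called lower, and the fibronectin row ENSDARG00000006526 lies at -3.09 while COL11A1 lies at 6.25.

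These calls are relative to TMM scaling. Under library sizes only, the log2 fold changes of all genes moved up by a median of 0.94. The matrix genes were then called higher in 28 cases and lower in 3. Of all tested genes 56.1% were called, 53.3% higher and 2.84% lower. The 3 that were lower under both scalings were the fibronectin row ENSDARG00000006526, the nidogen row ENSDARG00000068710 and col24a1. All 6 genes that rose with TMM factors were also called higher there. Directions of genes with a small fold change can turn with the scaling.

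Fibronectin binds collagen, fibrin and integrins. Its abundant row fell in ATG5 livers and had the lowest fold change of the 52 genes. FN1 (ENSDARG00000006526) had 2407, 1899 and 1771 CPM in ATG5 livers, against 19790, 16210 and 15920 CPM in WT livers. All WT values lay far above all ATG5 values, and the means were 2026 ± 336 CPM in ATG5 livers and 17310 ± 2153 CPM in WT livers (SD, n = 3 each). The log2 fold change was -3.09 ± 0.27 (SE), adjusted p = 0.00135, and it ran from -3.26 to -3.0 when each library was left out in turn, with the call held in 6 of 6 fits. Without TMM factors, on library sizes alone, it was -2.15 (adjusted p = 0.000722). This row took 0.236% to 0.328% of all counts in ATG5 livers and 1.14% to 1.35% in WT livers. It ranked 27th, 23rd and 38th by count among all rows in the ATG5 libraries, and 9th, 10th and 10th in the WT libraries. In bulk tissue, fewer cells of a type and less RNA per cell cannot be told apart.

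The other fibronectin row, FN1 (ENSDARG00000019815), showed no such fall. It had 4.84, 10.9 and 4.54 CPM in ATG5 livers and 3.802, 11.5 and 4.17 CPM in WT livers, with ranges that overlapped and a log2 fold change of 0.05 ± 0.55 (SE), adjusted p = 0.953. Replicate 2 was the highest library in both groups. Without ATG5 replicate 2 the log2 fold change turned to -0.48, and without WT replicate 1 or 3 to -0.23 or -0.19, none of them called. The ratio of the first row to the second within a library was 497, 174 and 390 in ATG5 livers, against 5200, 1410 and 3820 in WT livers. Estimated counts can be split between near-identical paralogues. How alike these rows are was not checked, and with such a split the low row would be the less certain one.

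Beside fibronectin, 24 of 27 genes for proteins that hepatocytes secrete fell and 0 rose, a share of 88.9% called against the 30.6% of all tested genes. Of 20 hepatocyte markers, 17 fell and 0 rose (85%, against 30.6% of all tested genes). Most of these markers are also in the list of secreted proteins, so the counts of the lists are not separate results. The summed level of the markers was 72210 to 104900 CPM in ATG5 livers and 250100 to 305700 CPM in WT livers, and their part in the result was not tested. The median log2 fold change of the secreted protein genes was -1.79, within a range of -5.18 to -0.49. On library sizes alone the median was -0.83. There, 16 of the 27 genes and 14 of the 20 markers were lower, against 2.84% of all tested genes. Only RBP4, which carries retinol, and apoa1a, an apolipoprotein gene, had a lower value in that list than FN1 (ENSDARG00000006526). Vitronectin, another adhesive plasma protein encoded by VTN, had 429.5, 345 and 387 CPM in ATG5 livers, against 1625, 1360 and 1321 CPM in WT livers in its row with the smaller p, a log2 fold change of -1.89 ± 0.19 (adjusted p = 0.00191). The ratio of fibronectin to FGB, a fibrinogen chain gene, does not depend on scaling. It was 0.844, 0.874 and 0.66 in ATG5 livers, against 1.86, 1.93 and 1.55 in WT livers, so each ATG5 liver lay below each WT liver. FGB itself fell (log2 fold change -1.93, SE 0.24, adjusted p = 0.00326), so a gene with no change of its own lies higher relative to it. The low fibronectin row had a log2 fold change of 0.05. Its ratios to FGB were 0.0017, 0.00502 and 0.00169 in ATG5 livers, against 0.000357, 0.00137 and 0.000405 in WT livers. Every ATG5 library lay above every WT library in this ratio.

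**Figure D2:**
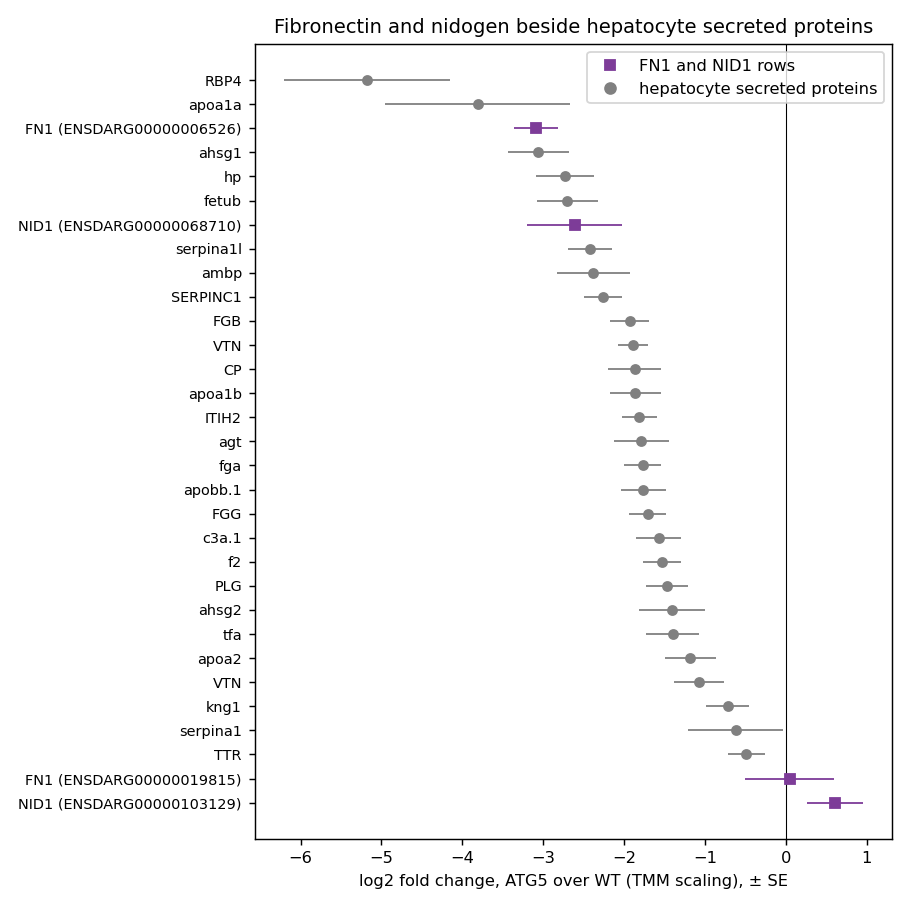
Log2 fold change of ATG5 over WT livers, with bars of 1 SE, for the 27 hepatocyte secreted protein genes (grey circles) and for the FN1 and NID1 rows (purple squares), sorted from lowest to highest. The FN1 row ENSDARG00000006526 and the NID1 row ENSDARG00000068710 lie among the secreted protein genes at -3.09 and -2.61, and the other FN1 and NID1 rows lie at 0.05 and 0.61, above every secreted protein gene.

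Among the 12 fibrillar collagens, 3 rose, 2 fell and 7 were not called, a share of 41.7% against 30.6% of all tested genes. Their median log2 fold change was 0.88 and 9 of 12 values were positive, against 51.4% of all tested genes. However, COL11A1, col5a3a and COL2A1 (ENSDARG00000069093) met the count rule only through the ATG5 libraries. Without these 3 rows, 2 rose and 2 fell, the median was 0.77 and 6 of 9 values were positive. The type I chains, which make the most abundant fibre of connective tissue, are encoded here by col1a1a, COL1A1 and COL1A2, and none of them passed the test. COL1A2 had 16.5, 10.7 and 34.1 CPM in ATG5 livers, against 10.4, 5.59 and 4.25 CPM in WT livers, and the lowest ATG5 value lay just above the highest WT value. Its log2 fold change was 1.6 ± 0.52 (SE), adjusted p = 0.0624, and it was called only when ATG5 replicate 2 was left out (1.90, adjusted p = 0.0475) among the 6 fits without 1 library. COL1A1 had 14.3, 13.8 and 29.6 CPM in ATG5 livers and 15.01, 8.05 and 6.27 CPM in WT livers (log2 fold change 0.98, SE 0.44, adjusted p = 0.145). For col1a1a the levels were 11.6, 9.55 and 24.9 CPM in ATG5 livers and 11.5, 8.62 and 6.79 CPM in WT livers (log2 fold change 0.77, SE 0.41, adjusted p = 0.2). Both overlapped between the groups, and ATG5 replicate 3 had the highest level of all 3 chains. DESeq2 called COL1A2 higher (adjusted p = 0.0124). With library sizes only all 3 chains were called higher, as were 53.3% of all tested genes.

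Ratios of 2 chains within a library do not depend on scaling. The ratio of col1a1a to COL1A2 was 0.704, 0.892 and 0.73 in ATG5 livers, against 1.1, 1.54 and 1.6 in WT livers, and the ratio of COL1A1 to COL1A2 was 0.867, 1.29 and 0.868 in ATG5 livers, against 1.44, 1.44 and 1.48 in WT livers. In both, every ATG5 liver lay below every WT liver, with an exact permutation p of 0.1 each (two-sided, 3 against 3), which is the smallest the design allows. The ratio of col1a1a to COL1A1 was 0.812, 0.694 and 0.84 in ATG5 livers, against 0.768, 1.07 and 1.08 in WT livers and overlapped (exact permutation p = 0.3). Adjusted over the 13 ratios compared, these exact permutation p-values were 0.163, 0.163 and 0.433.

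Type V and type XI collagens, which start and limit the growth of fibres, held called genes in both directions. COL5A2 rose: it had 8.47, 8.01 and 15.2 CPM in ATG5 livers, against 5.64, 2.54 and 3.06 CPM in WT livers, a log2 fold change of 1.5 ± 0.40 (SE), adjusted p = 0.0342. The ATG5 values all lay above the WT values, and ATG5 replicate 3 was the highest. The call was lost without any one of the libraries other than WT replicate 1 (log2 fold change 1.12 to 1.65, adjusted p = 0.0515 to 0.103). COL5A1, its partner chain, fell: it had 16.1, 13.1 and 16.9 CPM in ATG5 livers, against 221, 21.4 and 70.1 CPM in WT livers, a log2 fold change of -2.76 ± 0.79 (SE), adjusted p = 0.042. The WT libraries differed among themselves far more than the ATG5 libraries did, and WT replicate 2 lay close to the ATG5 range. That call was lost without any one of the libraries other than WT replicate 2, with adjusted p = 0.0699 to 0.12, and the log2 fold change was -1.59 without WT replicate 1. It was also lost with limma-voom and with library sizes only. The ratio of COL5A2 to COL5A1, chosen after the values were seen, was 0.528, 0.614 and 0.899 in ATG5 livers, against 0.0255, 0.119 and 0.0436 in WT livers.

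COL11A1 was nearly absent from WT livers. It had counts of 35, 100 and 41 in ATG5 libraries, against 0, 1 and 0 in WT libraries, which correspond to 0.652, 2.02 and 0.688 CPM in ATG5 livers, against 0, 0.0299 and 0 CPM in WT livers. The ratio of the summed counts, scaled for library size with TMM factors, was 90.6 with an exact 95% counting interval of 16 to 3600 that covers counting error only. The fitted log2 fold change, 6.25 ± 1.03 (SE), adjusted p = 0.00732, depends on how a count near 0 is treated. The call held in 6 of 6 fits that left out 1 library. COL11A1 met the count rule through the ATG5 libraries alone, as did col5a3a, COL8A2 and COL2A1 (ENSDARG00000069093), so that their selection favoured higher ATG5 values. Counts and medians over the 52 genes describe the rows that met the rule and no others.

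The remaining calls among fibrillar collagens were col27a1b, higher, and col24a1, lower; both belong to a divergent branch of the family. For col24a1 the levels were 3.76, 4.74 and 2.18 CPM in ATG5 livers and 16.5, 22.1 and 15.3 CPM in WT livers, with no overlap. Its log2 fold change was -2.34 ± 0.33 (SE), adjusted p = 0.00439, the call held in 6 of 6 fits without 1 library, and it was -1.39 with library sizes only (adjusted p = 0.0166). In col27a1b the levels were 5.08, 2.83 and 3.07 CPM in ATG5 livers and 1.84, 1.197 and 1.35 CPM in WT livers, again with no overlap, and the log2 fold change was 1.33 ± 0.34 (SE), adjusted p = 0.0293. It was called without ATG5 replicate 2 and not called without any of the other 5 (0.99 to 1.51, adjusted p = 0.0525 to 0.0966). Type II collagen, the fibre of cartilage and notochord, has 2 rows. COL2A1 (ENSDARG00000011407) had 2.496, 7.53 and 11.02 CPM in ATG5 livers and 1.92, 1.58 and 11.5 CPM in WT livers, with WT replicate 3 above the highest ATG5 library (log2 fold change 0.49, SE 0.89, adjusted p = 0.708). COL2A1 (ENSDARG00000069093), col5a3a and col11a1b were not called, with adjusted p = 0.341, 0.117 and 0.914.

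Beside the fibrillar collagens, markers of the cells that make them were measured, and their part in the results was not tested. Of 25 stellate cell and fibroblast markers, 5 rose and 1 fell (24%, against 30.6% of all tested genes). On library sizes alone 17 of the 25 were higher and 0 lower, against 53.3% and 2.84% of all tested genes. Their summed level was 438 to 522 CPM in ATG5 livers and 397 to 454 CPM in WT livers. With TMM factors, 18 of the 25 had a positive log2 fold change, against 51.4% of all tested genes, and the median was 0.5. TAGLN, a contractile gene, rose in 1 row, with 29.6, 38.8 and 34.4 CPM in ATG5 livers, against 6.24, 8.73 and 4.76 CPM in WT livers (log2 fold change 2.38, SE 0.26, adjusted p = 0.00227). A row of MYL9 (log2 fold change 1.76, adjusted p = 0.0105) and a row of NGFR (4.98, adjusted p = 0.0109) rose too, and their other rows were not called. The 5 that rose also included HAND2 (log2 fold change 1.23, SE 0.36, adjusted p = 0.0451) and a row of VIM (2.85, SE 0.83, adjusted p = 0.043). The other VIM row was not called. The marker that fell was STEAP4 (log2 fold change -0.73, SE 0.19, adjusted p = 0.0301). The fibroblast receptor gene PDGFRB, chosen after its values were seen, was not called (log2 fold change -0.37, SE 0.37, adjusted p = 0.478). It had 11.8, 13.5 and 14.4 CPM in ATG5 livers and 20.4, 8.38 and 22.7 CPM in WT livers. Like col6a1, it was lowest in WT replicate 2, but this did not hold for the whole list. Among the WT libraries, the TAGLN row above was highest in replicate 2.

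**Figure D3:**
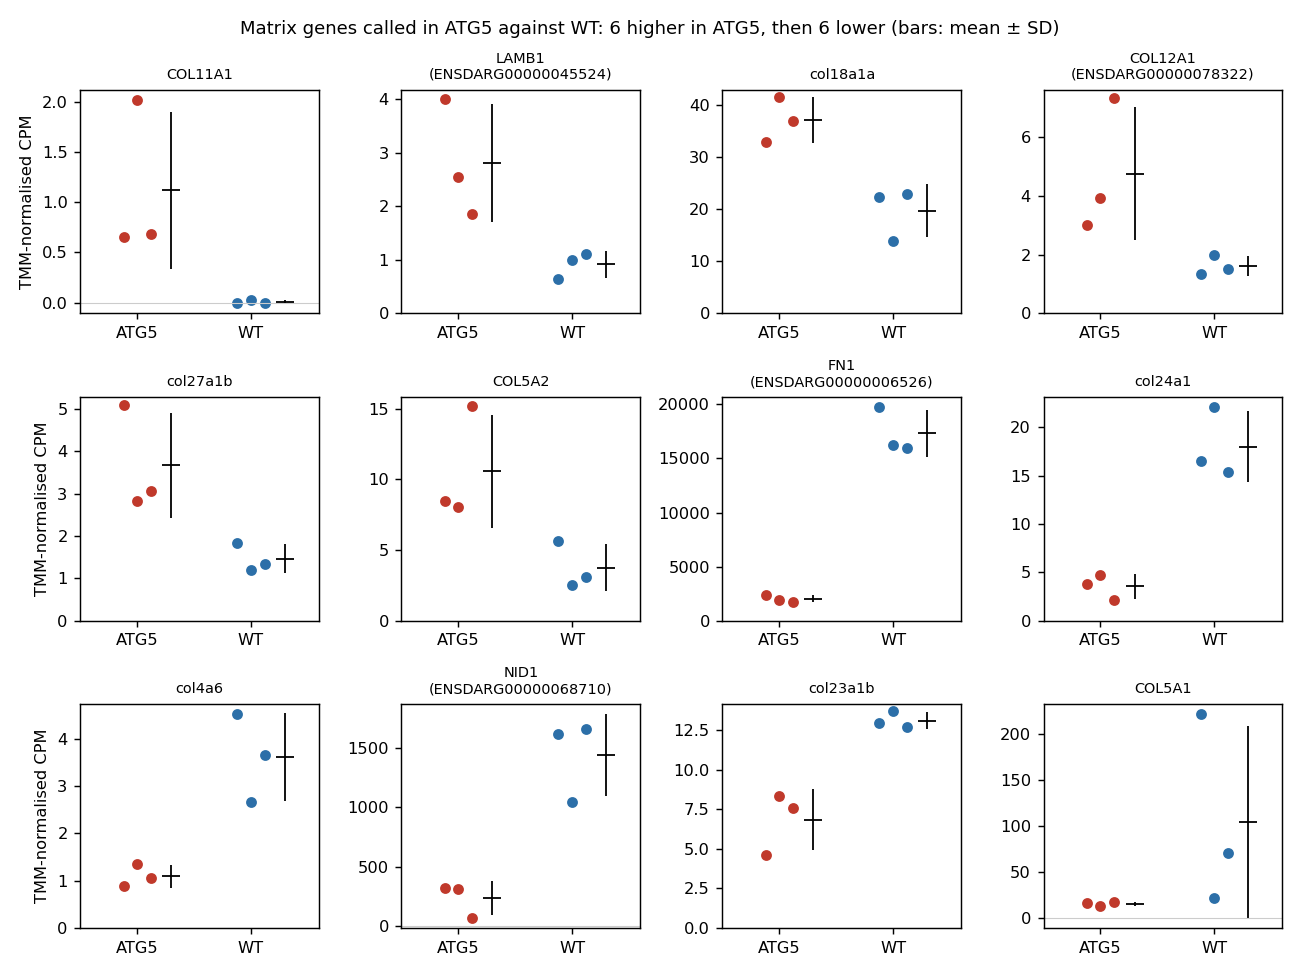
TMM-normalised CPM of the 12 called matrix genes in each library, ATG5 in red and WT in blue, with the mean and SD as a black bar beside each group. In the 6 genes called higher and the 6 called lower the groups do not overlap, and the WT libraries of COL5A1 are spread from 21.4 to 221 CPM.

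Among the 19 basement membrane genes, 2 rose, 2 fell and 15 were not called (21.1%, against 30.6% of all tested genes), with a median log2 fold change of 0.38. Type IV collagen, the network that defines a basement membrane, had main chains that were not called. COL4A1 had 10.9, 12.9 and 11.9 CPM in ATG5 livers and 14.8, 9.902 and 12.7 CPM in WT livers (log2 fold change -0.07, SE 0.19, adjusted p = 0.81). COL4A2 had 9.41, 10.8 and 9.01 CPM in ATG5 livers and 9.97, 7.69 and 12.2 CPM in WT livers (log2 fold change -0.03, SE 0.21, adjusted p = 0.924). The ranges overlapped in both. With library sizes only both were called higher (0.89 and 0.92), as were 53.3% of all tested genes. The ratio of COL4A2 to COL4A1 was 0.866, 0.837 and 0.755 in ATG5 livers, against 0.671, 0.776 and 0.96 in WT livers, with overlap and an exact permutation p of 0.9. The RefSeq table of the assembly GRCz12tu lists col4a1 and col4a2 next to each other, and likewise col4a5 and col4a6.

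Of col4a5 and col4a6, which lie side by side and form a network of their own in mammals, col4a6 fell, with 0.875, 1.36 and 1.06 CPM in ATG5 livers, against 4.52, 2.66 and 3.65 CPM in WT livers, and a log2 fold change of -1.72 ± 0.32 (SE), adjusted p = 0.0109 that was called in 6 of 6 fits without 1 library. Under library sizes only it was -0.75 and not called (adjusted p = 0.0924). For col4a5 the levels were 0.689, 0.546 and 0.5703 CPM in ATG5 livers and 0.881, 0.568 and 0.476 CPM in WT livers (log2 fold change -0.09, SE 0.40, adjusted p = 0.887). The ratio of col4a6 to col4a5 was 1.27, 2.48 and 1.85 in ATG5 livers, against 5.14, 4.68 and 7.67 in WT livers, with no overlap and an exact permutation p of 0.1, the smallest possible. COL4A4, known in mammals from the kidney's filtration membrane, had 3.204, 2.57 and 1.41 CPM in ATG5 livers and 4.16, 4.697 and 3.21 CPM in WT livers and was not called (log2 fold change -0.75, SE 0.35, adjusted p = 0.159). Its groups did not overlap. All 5 type IV rows had a log2 fold change below 0 with TMM factors, where 51.4% of all tested genes had one above 0. With library sizes only, 4 of the 5 had one above 0.

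Laminins are cross-shaped trimers of an alpha, a beta and a gamma chain. All 9 laminin rows had a positive log2 fold change, against 51.4% of all tested genes. The values ran from 0.11 to 2.31 with a median of 0.55. In 5 of 9 the ATG5 values lay above all WT values, against 27.1% of all tested genes. Of the 9, 1 was called (11.1%, against 30.6% of all tested genes). LAMB1 (ENSDARG00000045524), a beta chain row, rose with 4.005, 2.55 and 1.86 CPM in ATG5 livers, against 0.6404, 0.987 and 1.11 CPM in WT livers, a log2 fold change of 1.61 ± 0.40 (SE), adjusted p = 0.0272. It was called without ATG5 replicate 3 and lost without any of the other 5 libraries (1.24 to 1.77, adjusted p = 0.0554 to 0.0896), and limma-voom did not call it. The other beta row, LAMB1 (ENSDARG00000101209), had 14.5, 15.3 and 16.2 CPM in ATG5 livers and 13.4, 5.803 and 9.52 CPM in WT livers (log2 fold change 0.68, SE 0.30, adjusted p = 0.141). The gamma chain lamc1, shared by most laminins, had 29.8, 41.6 and 37.6 CPM in ATG5 livers, against 24.7, 21.8 and 28.97 CPM in WT livers, with no overlap, yet missed the threshold (log2 fold change 0.53, SE 0.19, adjusted p = 0.075). Among alpha chains, LAMA5 had 4.899, 4.37 and 12.1 CPM in ATG5 livers and 3.56, 3.5 and 3.41 CPM in WT livers (log2 fold change 1.03, SE 0.42, adjusted p = 0.112), with ATG5 replicate 3 standing apart. The vascular chain lama4 had 11.3, 10.2 and 10.01 CPM in ATG5 livers and 10.5, 6.76 and 6.91 CPM in WT livers (log2 fold change 0.38, SE 0.22, adjusted p = 0.227). The gamma chain lamc3 had 0.969, 2.83 and 1.66 CPM in ATG5 livers and 0.2001, 0.748 and 0.119 CPM in WT livers (log2 fold change 2.31, SE 0.77, adjusted p = 0.0649) and was called by DESeq2 (adjusted p = 0.0153) and without WT replicate 2 (3.48, adjusted p = 0.0253). In lama3, lamb2l and LAMB2 the adjusted p-values were 0.281, 0.443 and 0.876. Of the 9 rows, LAMB2 was the one whose sign turned when a library was left out, down to -0.34. Under library sizes only, 8 of the 9 were called higher, against 53.3% of all tested genes.

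The ratio of a laminin chain to a type IV chain could be read without scaling. The ratio of lamc1 to COL4A1, chosen after the values were seen and given without a test, was 2.74, 3.23 and 3.15 in ATG5 livers, against 1.66, 2.2 and 2.27 in WT livers. Every ATG5 library lay above every WT library. The multiplexin gene col18a1a, whose protein yields endostatin, also lay higher against COL4A1, with ratios of 3.02, 3.23 and 3.11 in ATG5 livers, against 1.51, 1.4 and 1.8 in WT livers. This ratio too was chosen after the values were seen and is given without a test. The level of col18a1a was 32.8, 41.6 and 37.05 CPM in ATG5 livers and 22.4, 13.9 and 22.9 CPM in WT livers, a log2 fold change of 0.91 ± 0.23 (SE), adjusted p = 0.0276. The call was lost without any 1 of the ATG5 replicates or without WT replicate 1 (0.82 to 1.01, adjusted p = 0.0592 to 0.0797).

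Of the 4 rows of nidogens, the links between the laminin and type IV networks, 1 fell and 3 were not called. NID1 (ENSDARG00000068710) fell, with 322, 313 and 72.1 CPM in ATG5 livers, against 1618, 1044 and 1660 CPM in WT livers. ATG5 replicate 3 was lower than the other ATG5 libraries, and no ATG5 library reached the WT range. The log2 fold change was -2.61 ± 0.59 (SE), adjusted p = 0.0196, which missed the threshold once WT replicate 1 (-2.53, adjusted p = 0.0591) or WT replicate 3 (-2.51, adjusted p = 0.0541) was removed. NID2 had 3.78, 10.8 and 0.805 CPM in ATG5 livers and 18.01, 16.3 and 17.1 CPM in WT livers, without overlap, and a log2 fold change of -1.75 ± 0.80 (SE), adjusted p = 0.15; it was called by DESeq2 (adjusted p = 0.0457) and without ATG5 replicate 2 (-2.91, adjusted p = 0.0377). ATG5 replicate 3 was the lowest library for NID2 as well. The other NID1 row, NID1 (ENSDARG00000103129), had 10.99, 14.2 and 11.5 CPM in ATG5 livers and 12.6, 5.504 and 5.95 CPM in WT livers (log2 fold change 0.61, SE 0.35, adjusted p = 0.233) and was called higher without WT replicate 1 (1.08, adjusted p = 0.0252). The row of nid2b was near the count limit, with 0.205, 0.304 and 0.369 CPM in ATG5 livers and 0.08005, 0.927 and 0.159 CPM in WT livers (log2 fold change -0.44, SE 0.88, adjusted p = 0.739). Relative to FGB, NID1 (ENSDARG00000068710) was 0.113, 0.144 and 0.0269 in ATG5 livers, against 0.152, 0.124 and 0.161 in WT livers: ATG5 replicate 2 lay within the WT range, ATG5 replicate 1 just below it and ATG5 replicate 3 far below it. That ratio was chosen after the values were seen.

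**Figure D4:**
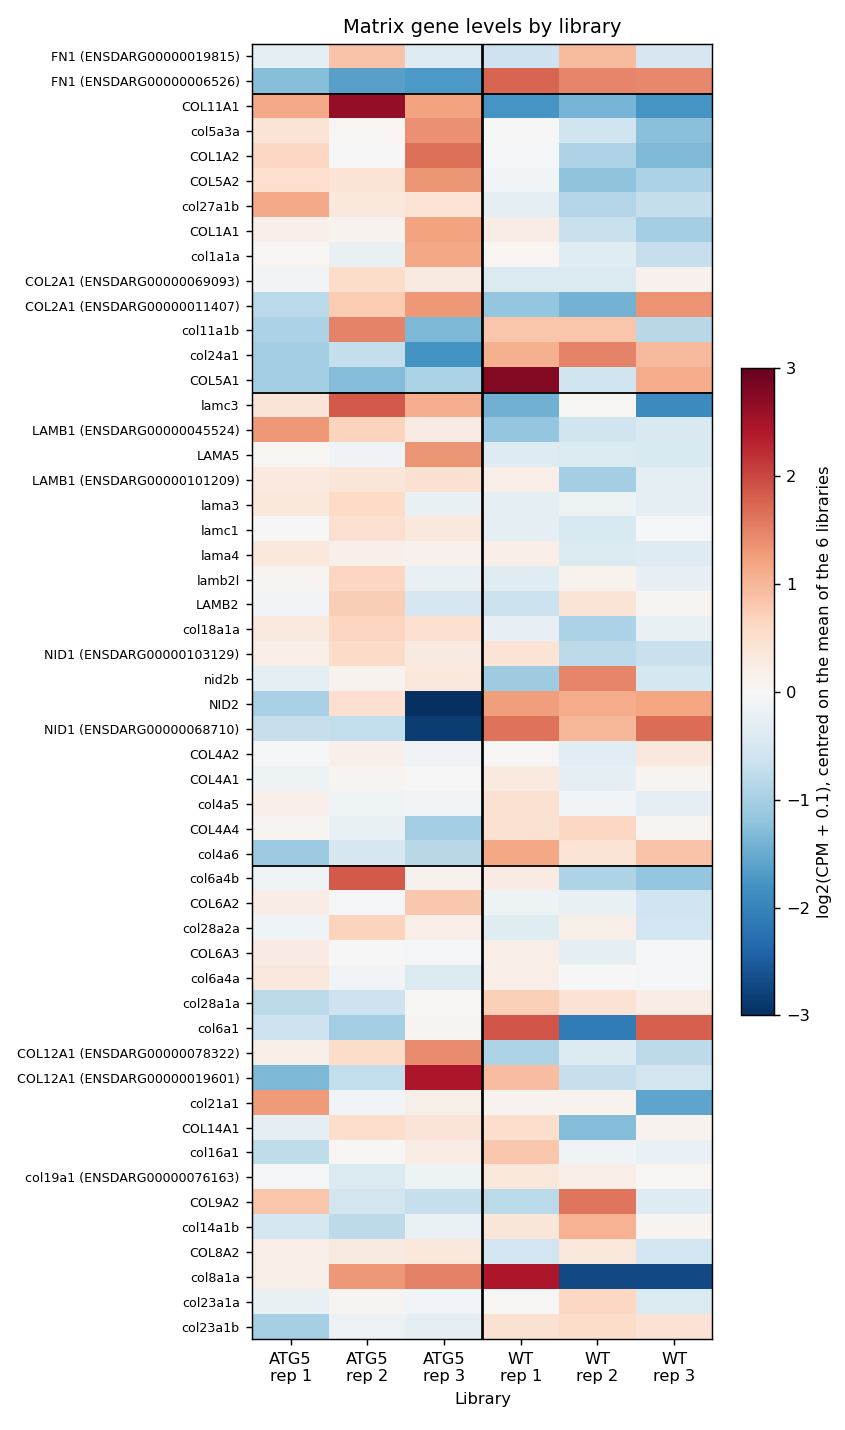
Level of the 52 matrix genes in each of the 6 libraries as log2(CPM + 0.1), centred on the mean of the gene, with ATG5 libraries on the left, WT libraries on the right and horizontal lines between the fibronectins, fibrillar collagens, basement membrane genes and other collagens. COL5A1 and col6a1 are high in WT replicates 1 and 3 and lower in WT replicate 2, and the NID1 row ENSDARG00000068710 and NID2 are lowest in ATG5 replicate 3.

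The 19 other collagens held 1 gene that rose, 1 that fell and 17 not called (10.5%, against 30.6% of all tested genes), with a median log2 fold change of 0.10. Type VI collagen forms beaded filaments around cells. Its chain COL6A3 had 22.8, 18.98 and 18.3 CPM in ATG5 livers and 22.2, 15.6 and 18.3 CPM in WT livers (log2 fold change 0.10, SE 0.18, adjusted p = 0.71), and COL6A2 had 18.9, 15.8 and 28.9 CPM in ATG5 livers and 14.6, 13.97 and 10.8 CPM in WT livers (log2 fold change 0.69, SE 0.26, adjusted p = 0.0942). The row col6a4a had 74.5, 55.1 and 42.97 CPM in ATG5 livers and 67.6, 58.4 and 56.95 CPM in WT livers (log2 fold change -0.08, SE 0.22, adjusted p = 0.807). In col6a1 the libraries were split: it had 25.2, 18.9 and 41.1 CPM in ATG5 livers and 144, 8.97 and 135 CPM in WT livers, a log2 fold change of -1.76 ± 0.91 (SE), adjusted p = 0.193. WT replicate 2 lay below all ATG5 libraries and the other WT libraries lay far above them, and without WT replicate 2 the gene was called lower (-2.31, adjusted p = 0.0133). The ratio of col6a1 to COL6A2, chosen after the values were seen, was 1.33, 1.2 and 1.42 in ATG5 livers, against 9.87, 0.642 and 12.5 in WT livers, so the ATG5 libraries were alike and the WT libraries were not.

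Fibril-associated collagens sit on the surface of fibres. COL12A1 (ENSDARG00000078322) rose, with 3.02, 3.95 and 7.33 CPM in ATG5 livers, against 1.36, 2.004 and 1.51 CPM in WT livers, a log2 fold change of 1.55 ± 0.39 (SE), adjusted p = 0.029. It was called without ATG5 replicate 1 and lost without any of the other 5 libraries (1.07 to 1.72, adjusted p = 0.0525 to 0.0973), and limma-voom did not call it. The other row, COL12A1 (ENSDARG00000019601), had 0.652, 1.03 and 10.1 CPM in ATG5 livers and 3.48, 1.08 and 1.19 CPM in WT livers (log2 fold change 1.04, SE 1.1, adjusted p = 0.515), with ATG5 replicate 3 alone standing high. The row col19a1 (ENSDARG00000076163) had 6.28, 4.74 and 5.75 CPM in ATG5 livers and 8.16, 7.42 and 6.67 CPM in WT livers (log2 fold change -0.41, SE 0.18, adjusted p = 0.144). The remaining 5 rows, COL14A1, col14a1b, col16a1, col21a1 and COL9A2, were not called, with adjusted p = 0.0871 to 0.682.

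The transmembrane collagen col23a1b fell, with 4.64, 8.32 and 7.598 CPM in ATG5 livers, against 12.9, 13.7 and 12.7 CPM in WT livers, a log2 fold change of -0.94 ± 0.24 (SE), adjusted p = 0.0304. Its call was lost without ATG5 replicate 3 or any 1 of the WT replicates (-1.05 to -0.91, adjusted p = 0.0561 to 0.0782), and with library sizes only the log2 fold change was 0.01. For col23a1a the levels were 0.615, 0.789 and 0.688 CPM in ATG5 livers and 0.7605, 1.197 and 0.516 CPM in WT livers (log2 fold change -0.25, SE 0.42, adjusted p = 0.69). Type VIII collagen, a short-chain network former, was close to the detection limit. In col8a1a the counts of 2 WT libraries were 0, and the levels were 0.633, 1.52 and 1.74 CPM in ATG5 livers and 3.402, 0 and 0 CPM in WT livers (log2 fold change 0.21, SE 1.69, adjusted p = 0.94). The single high library there was WT replicate 1, and without it the gene was called higher (8.85, adjusted p = 0.0211). In COL8A2 the levels were 0.205, 0.223 and 0.235 CPM in ATG5 livers and 0.08005, 0.239 and 0.0794 CPM in WT livers (log2 fold change 0.68, SE 0.60, adjusted p = 0.438). Type XXVIII collagen rows were not called: col28a1a had 3.06, 3.48 and 5.57 CPM in ATG5 livers and 8.93, 7.36 and 6.31 CPM in WT livers (log2 fold change -0.90, SE 0.29, adjusted p = 0.0567) and was called lower by DESeq2 (adjusted p = 0.0222) and without ATG5 replicate 3 (-1.23, adjusted p = 0.0268), and col28a2a had an adjusted p of 0.365. The row col6a4b had an adjusted p of 0.182.

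The count rule left out 25 rows with a matching symbol. Just inside it, with 10 counts in 3 libraries, were COL11A1, COL8A2, col5a3a and COL2A1 (ENSDARG00000069093). Just outside it, with 10 counts in 2 libraries, were LAMA1, col15a1b, col28a1b, 1 col7a1l row, 1 COL10A1 row, COL8A1 and col17a1a. LAMA1, an alpha chain of early embryonic laminin, had counts of 6, 2 and 8 in ATG5 libraries, against 68, 69 and 0 in WT libraries. COL8A1 had counts of 134, 16 and 0 in ATG5 libraries, against 0, 2 and 0 in WT libraries. All 52 rows that met the rule also passed the expression filter of the test.

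**Figure D5:**
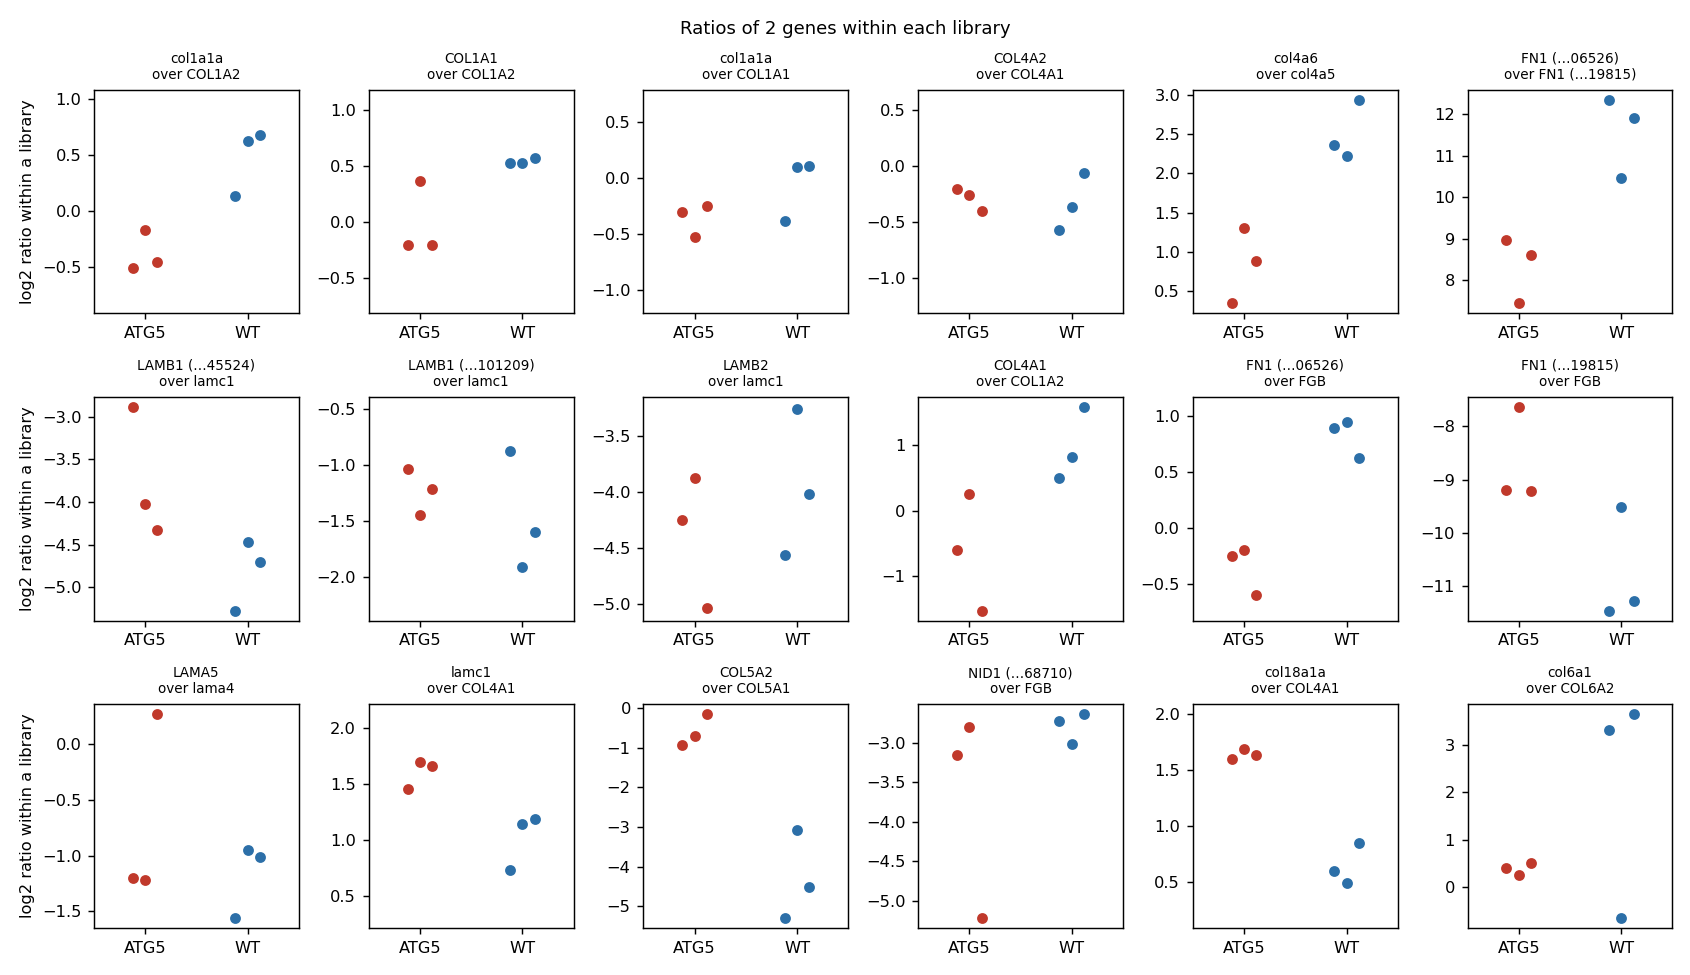
Log2 ratio of 2 genes within each library for 18 pairs, ATG5 in red and WT in blue, each panel on its own scale. Identifiers are shortened to their last digits. The ratios of col4a6 to col4a5, of the FN1 row ENSDARG00000006526 to FGB and of col1a1a to COL1A2 are lower in all 3 ATG5 libraries than in all 3 WT libraries, and COL4A2 to COL4A1 overlaps.

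Of the 13 ratios set out for testing, 8 had no overlap between the groups. Gene by gene, 49.3% of all tested genes had no overlap, and no such share was taken for ratios of other pairs. The 8 are not separate results, since COL1A2, FGB and the FN1 rows recur among them. None of the 13 can pass, since the smallest exact permutation p is 0.1 and the adjusted value 0.163. The ratio of COL4A1 to COL1A2, a network chain against a fibre chain, was 0.66, 1.2 and 0.349 in ATG5 livers, against 1.42, 1.77 and 3 in WT livers, without overlap. The ratio of LAMB1 (ENSDARG00000045524) to lamc1 was 0.135, 0.0613 and 0.0496 in ATG5 livers, against 0.0259, 0.0453 and 0.0384 in WT livers, without overlap. The ratios of LAMB1 (ENSDARG00000101209) to lamc1, LAMB2 to lamc1 and LAMA5 to lama4 overlapped (exact permutation p = 0.6, 0.5 and 0.6).

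Genes that make, cut and bind the matrix were called in both directions. Of 41 genes for collagen synthesis and crosslinking, 5 rose and 8 fell (31.7%, against 30.6% of all tested genes). With library sizes only 19 of the 41 were higher and 2 lower, against 53.3% and 2.84% of all tested genes. Both rows of BMP1, a procollagen proteinase gene, fell, the clearer with 67.3, 99.5 and 88.4 CPM in ATG5 livers, against 435, 345 and 447 CPM in WT livers (log2 fold change -2.27, SE 0.22, adjusted p = 0.00174). The collagen prolyl hydroxylase subunit gene P4HA3 fell too, with 1.64, 1.11 and 0.922 CPM in ATG5 livers, against 17.7, 65 and 19.6 CPM in WT livers (log2 fold change -4.8, SE 0.64, adjusted p = 0.00388). Its partner subunit P4HB, also an abundant chaperone of hepatocytes, had 462, 313 and 313 CPM in ATG5 livers and 726, 1061 and 611 CPM in WT livers (log2 fold change -1.14, SE 0.29, adjusted p = 0.0279). On library sizes alone P4HB was not called (log2 fold change -0.21, adjusted p = 0.571). The less clear BMP1 row was not called there either (log2 fold change -0.54, adjusted p = 0.196). The enhancer of procollagen cleavage pcolceb had a log2 fold change of -1.95 ± 0.34 (SE), adjusted p = 0.00906. The lysyl hydroxylase gene PLOD3 rose, with 25.8, 25.9 and 26.3 CPM in ATG5 livers, against 17.9, 14.4 and 15.4 CPM in WT livers (log2 fold change 0.71, SE 0.14, adjusted p = 0.0121). SERPINH1, the collagen chaperone, named after its values were seen along with P4HB, had 1 row that rose, with 9.22, 5.53 and 19.99 CPM in ATG5 livers, against 1.76, 3.11 and 3.13 CPM in WT livers (log2 fold change 2.11, SE 0.52, adjusted p = 0.0259). The other SERPINH1 row was not called (log2 fold change 0.38, SE 0.44, adjusted p = 0.546).

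Of 15 other basement membrane genes, 0 rose and 2 fell (13.3%, against 30.6% of all tested genes). On library sizes alone 5 of the 15 were higher and 1 lower, against 53.3% and 2.84% of all tested genes. The 2 that fell were AGRN, the heparan sulphate proteoglycan agrin, with 7.39, 14.9 and 6.39 CPM in ATG5 livers, against 59.08, 96.3 and 102 CPM in WT livers (log2 fold change -3.17, SE 0.41, adjusted p = 0.00358), and SMOC1, with 3.33, 5.38 and 4.65 CPM in ATG5 livers, against 15.9, 9.81 and 14.6 CPM in WT livers (log2 fold change -1.59, SE 0.27, adjusted p = 0.0081). With library sizes only SMOC1 was not called (log2 fold change -0.63, adjusted p = 0.087). HSPG2, the proteoglycan perlecan, had 22.6, 42.3 and 24.5 CPM in ATG5 livers and 21.4, 27.6 and 23.2 CPM in WT livers and overlapped (log2 fold change 0.31, SE 0.27, adjusted p = 0.435); it was named after its values were seen. Of 25 proteases and inhibitors, 3 rose and 2 fell (20%, against 30.6% of all tested genes). On library sizes alone 11 of the 25 were higher and 1 lower, against the same 53.3% and 2.84%. A row of the membrane collagenase gene MMP14 (ENSDARG00000002235) rose, with 6.89, 13.8 and 27.1 CPM in ATG5 livers, against 4.48, 3.44 and 4.25 CPM in WT livers (log2 fold change 1.98, SE 0.49, adjusted p = 0.0268). Its other row (ENSDARG00000008388) had 29.8, 42.8 and 76.6 CPM in ATG5 livers and 39.2, 24.6 and 28.2 CPM in WT livers and overlapped (log2 fold change 0.70, SE 0.37, adjusted p = 0.207). A row of the inhibitor gene TIMP2 rose, with 7.19, 7.77 and 9.36 CPM in ATG5 livers, against 2.88, 3.56 and 2.22 CPM in WT livers (log2 fold change 1.49, SE 0.24, adjusted p = 0.00684). The other TIMP2 row was not called (log2 fold change 0.21, SE 0.18, adjusted p = 0.406). The enzyme gene mmp25b rose (log2 fold change 1.96, SE 0.47, adjusted p = 0.0233) and mmp20a fell, with 0.0186, 0.121 and 0.134 CPM in ATG5 livers, against 3.44, 9.18 and 1.86 CPM in WT livers (log2 fold change -5.68, SE 0.90, adjusted p = 0.0066).

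Matrix receptors had the largest share of calls of these lists, with 11 of 32 higher and 4 lower (46.9%, against 30.6% of all tested genes). The leukocyte integrin gene itgb7 rose, with 23.9, 24.9 and 29.8 CPM in ATG5 livers, against 1.56, 1.92 and 2.46 CPM in WT livers (log2 fold change 3.73, SE 0.23, adjusted p = 0.000655). The laminin receptor gene bcam rose, with 8.53, 4.92 and 11.4 CPM in ATG5 livers, against 0.5604, 0.957 and 1.31 CPM in WT livers (log2 fold change 3.13, SE 0.45, adjusted p = 0.00469). In the other direction, the syndecan gene sdc2 had 119, 103 and 119 CPM in ATG5 livers and 396, 258 and 310.4 CPM in WT livers (log2 fold change -1.5, SE 0.21, adjusted p = 0.00431), and 3 rows of ITGB1, the common beta chain of matrix-binding integrins, fell. The row of ITGB1 with the smallest p had 55.2, 68.2 and 40.5 CPM in ATG5 livers and 119.6, 142 and 153 CPM in WT livers (log2 fold change -1.34, SE 0.23, adjusted p = 0.00836). On library sizes alone none of the 3 ITGB1 rows that fell was called (-0.39, -0.06 and 0.33). The remaining ITGB1 row was not called with TMM factors (log2 fold change 0.21, SE 0.33, adjusted p = 0.663). ITGA5, which pairs with it to bind fibronectin and was named after its values were seen, rose, with 9.55, 9.33 and 9.93 CPM in ATG5 livers, against 5.64, 3.17 and 3.97 CPM in WT livers (log2 fold change 1.17, SE 0.24, adjusted p = 0.0146). The alpha chain gene itga2.1 had 0 counts in all WT libraries and 67 in the ATG5 libraries together. With TMM factors, this is at least 11.5-fold higher if the WT libraries together are set to 3 counts. Under library sizes only, 18 of the 32 receptor genes were higher (against 53.3% of all tested genes) and 1 lower.

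Of 34 other interstitial matrix genes, 7 rose and 3 fell (29.4%, against 30.6% of all tested genes). On library sizes alone 17 of the 34 were higher and 2 lower, against 53.3% and 2.84% of all tested genes. A total of 4 of these 10 were rows of MFAP4, which is also in the macrophage marker list, 3 higher and 1 lower. Among the rest, chosen after the values were seen, TGFBI, a collagen-binding matrix protein gene, fell, with 9.07, 36.3 and 2.08 CPM in ATG5 livers, against 154, 277 and 366 CPM in WT livers (log2 fold change -4.07, SE 1.04, adjusted p = 0.0294). A row of POSTN, which encodes periostin, rose, with 9.84, 13.4 and 9.29 CPM in ATG5 livers, against 7.21, 5.59 and 3.53 CPM in WT livers (log2 fold change 0.99, SE 0.30, adjusted p = 0.0491). The other POSTN row had 14.8, 9.86 and 19.9 CPM in ATG5 livers and 33.9, 10.8 and 1.43 CPM in WT livers. It overlapped and was not called (log2 fold change -0.05, SE 0.94, adjusted p = 0.974).

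Markers of other cells that the livers could hold had the following values, and their part in the results was not tested. Of 24 endothelial markers, 2 rose and 5 fell (29.2%, against 30.6% of all tested genes). On library sizes alone 13 of the 24 were higher and 0 lower, against 53.3% and 2.84% of all tested genes. Their summed level was 198 to 226 CPM in ATG5 livers and 262 to 320 CPM in WT livers. Of 19 biliary markers, 11 rose and 0 fell (57.9%, against 30.6% of all tested genes). Their sum was 3533 to 4873 CPM in ATG5 livers and 1272 to 1772 CPM in WT livers, with spp1 at 0 in every library. Of 19 macrophage markers, 16 rose and 1 fell (89.5%, against 30.6% of all tested genes). Their sum was 1499 to 1842 CPM in ATG5 livers and 187 to 275 CPM in WT livers. Of 10 cartilage and notochord markers, 4 rose and 0 fell (40%, against 30.6% of all tested genes). Both SOX9 rows, which are in the biliary list too, were among these 4. The list summed to 53.4 to 67.4 CPM in ATG5 livers and 21.5 to 32.7 CPM in WT livers, with acanb and SHH at 0. The larger SOX9 row alone had 38.7, 30.7 and 38.95 CPM in ATG5 livers and 20.3, 13.9 and 15.7 CPM in WT livers. Of 9 epidermis markers, 2 rose and 0 fell (22.2%, below the 30.6% of all tested genes). Their sum was 242 to 411 CPM in ATG5 livers and 129.9 to 261 CPM in WT livers. Of 5 skeletal muscle markers, 1 rose and 0 fell (20%, also below 30.6%). Their sum was 3.36 to 4.005 CPM in ATG5 livers and 1.39 to 3.32 CPM in WT livers. No pancreas marker (0 of 15) or enterocyte marker (0 of 11) was called, with 756 to 998 CPM in ATG5 livers and 206 to 4760 CPM in WT livers for pancreas and 533 to 1540 CPM in ATG5 livers and 2036 to 3087 CPM in WT livers for enterocytes. FABP6 and LCT were at 0. On library sizes alone, 16 biliary, 16 macrophage, 7 cartilage and notochord, 2 epidermis, 1 skeletal muscle and 6 enterocyte markers were higher. No pancreas marker was higher there, against 53.3% of all tested genes, and the only lower marker of these lists was 1 macrophage marker.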

How the data were processed

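Livers of 6 zebrafish samples, 3 ATG5 and 3 WT, were profiled by RNA sequencing (TruSeq Stranded Total RNA preparation, as the labels' protocols state). The authors deposited 1 table of estimated counts per Ensembl gene, unnormalised. The submitters' processing notes name kallisto 0.45.0, FastQC 0.11.5, sleuth 0.30.0 and, as genome build, GRCz11, without their roles. Estimated counts were rounded to whole numbers. Symbols came from a table of gene names that matched 23608 of 30628 rows (77.1%).

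Genes were filtered with filterByExpr, scaled with TMM factors and tested with edgeR 4.0.16 (R 4.3.3), by a quasi-likelihood test of group alone with Benjamini-Hochberg adjustment over 20366 genes at 0.05. The test was run on simulated counts with few changed genes, as many higher as lower. That setting does not check the scaling of these data. Levels are TMM-normalised CPM and fold changes are ATG5 over WT. The SE of a log2 fold change is its size divided by the square root of the quasi-F statistic. Ratios within a library were compared by two-sided exact permutation tests with scipy 1.17.1. Totals were 33668921 to 44763213 counts per library. No 2 libraries agreed within sampling noise. Intervals and floors cover counting error only.

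Members and lists were chosen with earlier results of these data known. Values by library are given for both fibronectins, the 3 type I chains, COL4A1, COL4A2, every nidogen, up to 5 called genes with the smallest p and the 2 most abundant in each class, and up to 4 called genes per partner list. Other values shown were chosen after they were seen. Counts over lists are over tested rows. A comparison of levels per coding length was not made. Alternatives were upper-quartile or RLE factors, library sizes only, removal of the 50 most abundant and the mitochondrial genes, no filter, a filter of 10 counts in 3 libraries, DESeq2 1.42.0, limma-voom (limma 3.58.1), a replicate block, a threshold of 0.01 and leaving out each library.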

Additional observations from a re-analysis of the deposited data

How the results depend on the processing

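The 12 calls among the matrix genes were all kept with RLE factors, upper-quartile factors, DESeq2, no filter and the filter of 10 counts in 3 libraries. Without the 50 most abundant and the mitochondrial genes, 11 of the 11 called genes in the fit were kept, and the abundant fibronectin row has no value there. Limma-voom lost LAMB1 (ENSDARG00000045524), COL12A1 (ENSDARG00000078322) and COL5A1. With library sizes only, 28 matrix genes were higher and 3 lower, over all genes 10853 and 578, and the median log2 fold changes were 1.33 (basement membrane), 1.81 (fibrillar), -0.58 (fibronectin) and 1.05 (other collagens). At an adjusted p under 0.01, 1 matrix gene was higher and 2 lower, and over all genes 1518 and 953. The same-numbered replicates did not deviate together (correlations of -0.058, -0.099 and 0.045 over 13980 genes), and the fit with a replicate block called 3 matrix genes higher and 2 lower, and over all genes 2253 and 1636. Of the 12 calls, that fit kept only COL11A1, col27a1b, FN1 (ENSDARG00000006526) and col24a1. It lost LAMB1 (ENSDARG00000045524), col18a1a, COL5A2, COL12A1 (ENSDARG00000078322), NID1 (ENSDARG00000068710), col4a6, COL5A1 and col23a1b. It also called lamc3 higher (adjusted p = 0.0449), which is not one of the 12.

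Leaving out each library in turn gave 2 to 4 matrix genes higher and 3 to 6 lower, and over all genes 2218 to 2791 higher and 1583 to 2071 lower. Basement membrane genes were higher in 0 to 2 and lower in 1 to 3 cases, fibrillar collagens in 1 to 3 and 1 to 2, and other collagens in 0 to 1 and 0 to 1. The median log2 fold change ran from 0.08 to 0.39 for basement membrane genes, from 0.55 to 1.2 for fibrillar collagens, from -1.77 to -1.2 for fibronectins and from -0.14 to 0.23 for other collagens. FN1 (ENSDARG00000006526), col24a1, COL11A1 and col4a6 were called in all 6 of these fits. Of these, COL11A1 met the count rule through the ATG5 libraries alone, so its selection favoured higher ATG5 values.

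Among all 52 matrix genes, the directions that turned were of genes not called in the 6-library fit, apart from col23a1b. With library sizes only these were nid2b (0.45), COL4A4 (0.20), COL4A1 (0.89), col4a5 (0.86), COL4A2 (0.92), col11a1b (0.83), col28a1a (0.04), col6a4a (0.87), col19a1 (ENSDARG00000076163, 0.53), col16a1 (0.59), COL9A2 (0.29), col23a1b (0.01) and col23a1a (0.68). With limma-voom they were nid2b (0.08) and COL4A2 (0.00), and with the replicate block nid2b (0.17). Without 1 library, the log2 fold change ran from -0.91 to 1.26 for nid2b, -0.22 to 0.06 for COL4A1, -0.20 to 0.13 for COL4A2, -0.27 to 0.19 for col4a5 and -0.34 to 0.37 for LAMB2. It ran from -0.03 to 1.99 for COL2A1 (ENSDARG00000011407), -1.84 to 0.26 for col11a1b and -0.48 to 0.75 for FN1 (ENSDARG00000019815). It ran from -0.03 to 0.23 for COL6A3, -0.34 to 0.07 for col6a4a, -1.21 to 1.78 for COL12A1 (ENSDARG00000019601), -0.61 to 0.04 for col16a1, -1.45 to 0.77 for COL9A2, -0.09 to 0.71 for COL14A1, -0.40 to 8.85 for col8a1a and -0.50 to 0.12 for col23a1a. The log2 ratio of COL4A2 to COL4A1 ran from -0.08 to 0.18 and that of LAMA5 to lama4 from -0.04 to 0.71. The cause of these changes was not tested. Few counts lie behind COL11A1 in WT livers (0, 1 and 0) and behind COL8A2 (11, 11 and 14 in ATG5 livers, 2, 8 and 2 in WT livers).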
